A study of Mus musculus with 12 samples.

Results

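Expression of 41 interferon-stimulated genes was examined library by library in bone marrow macrophages (BMMs) upon ITGA5 neutralization. The genes were taken by symbol from a list drawn up with earlier results of these libraries known, so they are not an independent choice. Each symbol matched 1 of the 54532 genes in the count table. All 41 had reads in every library, and 38 had at least 10 counts in each of the 12. BMMs are macrophages grown from mouse bone marrow in the presence of CSF-1, here from wild-type C57BL/6J mice of 2 to 3 months of age. ITGA5 is the α5 chain of the α5β1 integrin, a surface receptor that binds fibronectin. The 4 groups, each with 3 libraries, were BMMs on uncoated plates with isotype IgG (IgG without fibronectin), BMMs on uncoated plates with an anti-ITGA5 neutralizing antibody (anti-ITGA5 without fibronectin), and the same antibodies on plates coated with fibronectin at 10 µg/ml (IgG and anti-ITGA5 groups with fibronectin). Either antibody was present at 10 µg/ml for 24 h, and no interferon was added. The study describes its BMM RNA-seq replicates as independent experiments. The labels name no mouse or culture for a library, and the p-values measure only the spread between these libraries.

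Type I interferons bind the receptor pair IFNAR1 and IFNAR2, whose kinases JAK1 and TYK2 phosphorylate STAT proteins, STAT2 among them. These join IRF9 in a complex that binds the interferon-stimulated response element (ISRE) in target promoters. Macrophages keep this program at a low, tonic level without infection, and IRF7, itself a target, amplifies it. The members fall into antiviral families, namely the IFIT proteins that bind viral RNA, the OAS enzymes that sense double-stranded RNA, and the Mx GTPases that trap viral nucleocapsids. They also include the guanylate-binding proteins (GBPs) and immunity-related GTPases (IRGs), which attack vacuoles of intracellular microbes and answer strongly to interferon-gamma as well. The remainder are transcription factors, nucleic acid sensors, the ISG15 ubiquitin-like system, chemokines and other effectors.

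The libraries held 12954342 to 22075432 counts on genes. The lowest total was that of anti-ITGA5 without fibronectin replicate 2, and its group was the least uniform, since a chi-square comparison of paired libraries averaged 11.4 to 25.6 over genes there and 2.79 to 8.13 in the other groups. Replicate 3 of anti-ITGA5 with fibronectin stood apart in the genes described here, so the counts of members called with the antibody on fibronectin are given with and without it. The 8 macrophage markers examined, Csf1r, Adgre1 and Cd68 among them, had at least 10 counts in every library. Their summed level was 8975 to 9818 FPKM in IgG and 6050 to 7446 FPKM in anti-ITGA5 without fibronectin, and 9552 to 9761 and 7304 to 7432 FPKM with it. Most of that sum and of its difference came from 1 gene, Lyz2 (lysozyme), at 7149 to 7988 and 4559 to 5788 FPKM without fibronectin and 7700 to 7909 and 5603 to 5751 FPKM with it. The other 7 markers summed to 1826 to 1866 and 1491 to 1657 FPKM without fibronectin, and to 1852 to 1879 and 1679 to 1701 FPKM with it. In bulk RNA, fewer cells of a kind and less RNA per cell cannot be told apart. FPKM divides a count of fragments by gene length and library size. The part of the lower Lyz2 and marker levels in the results below was not tested. Itga5 itself, the target of a blocking antibody that leaves its transcript in place, was at 44.5 to 49.1 FPKM in the 6 IgG libraries and 47.4 to 53.1 FPKM in the 6 anti-ITGA5 libraries, ranges that overlap.

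A sequence feature shared by many members is the ISRE core, searched as GAAANNGAAA on either strand, overlapping matches included, from 250 bases before to 50 after the RefSeq start (GRCm38.p6). It was found in 20 of the 31 members with a window, and in 17 of them upstream of the start. Among all 27025 gene symbols with a window, 1079 (3.99%) held it. The windows below come from 4 members that fell without fibronectin (Isg15, Ifit3, Oas3 and Bst2) and from 3 GTPase members, of which Gbp2 and Gbp3 were not called and Igtp fell. They are shown because both kinds hold the same core. Capitals mark the core, which reads as its reverse complement, with T runs followed by C, where it lies on the other strand.
Isg15, chr4:156200856-156200915 (- strand), bases -97 to -38 from the start: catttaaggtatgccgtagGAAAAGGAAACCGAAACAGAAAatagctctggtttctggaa
Ifit3, chr19:34583365-34583424 (+ strand), bases -164 to -105 from the start: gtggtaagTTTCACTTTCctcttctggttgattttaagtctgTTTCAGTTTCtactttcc
Oas3, chr5:120777700-120777759 (- strand), bases -100 to -41 from the start: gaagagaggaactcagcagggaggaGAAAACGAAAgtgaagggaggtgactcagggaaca
Bst2, chr8:71537565-71537624 (- strand), bases -152 to -93 from the start: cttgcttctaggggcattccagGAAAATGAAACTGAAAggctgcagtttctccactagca
Gbp2, chr3:142620579-142620638 (+ strand), bases -84 to -25 from the start: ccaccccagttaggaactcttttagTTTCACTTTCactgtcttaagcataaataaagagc
Gbp3, chr3:142559977-142560036 (+ strand), bases -67 to -8 from the start: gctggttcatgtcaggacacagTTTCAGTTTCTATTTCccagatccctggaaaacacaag
Igtp, chr11:58199496-58199555 (+ strand), bases -60 to -1 from the start: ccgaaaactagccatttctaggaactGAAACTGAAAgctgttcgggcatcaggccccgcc
Isg15 held 3 overlapping cores, Ifit3, Bst2 and Gbp3 held 2 each, and Oas3, Gbp2 and Igtp held 1. The core was present in 15 of 22 members with a window that fell upon ITGA5 neutralization without fibronectin (68.2%) and in 5 of 9 that were not called (55.6%). It was in 4 of 7 IFIT, OAS and Mx genes and in 5 of 6 GBP and IRG genes. A match describes the letters in the window and is not evidence of binding.

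Basal levels differed widely between members on the FPKM scale. Bst2, which tethers budding virions to the cell surface, was the most abundant at 298 ± 11.3 FPKM (SD, n = 3) in IgG without fibronectin. Lgals3bp, a secreted lectin-binding glycoprotein, followed at 113 ± 2.64 FPKM. The means over 12 libraries of 11 members reached 10 FPKM and those of 6 stayed under 1 FPKM, namely Mx2, Gbp2, Gbp3, Gbp7, Cxcl10 and Ifi44. Within families, Oas1a led the OAS genes at 29.7 ± 2.38 FPKM and Mx1 exceeded Mx2 (2.94 ± 0.553 against 0.564 ± 0.211 FPKM). In the GTPases, Ifi47, Irgm1 and Igtp stood at 5.89 ± 0.430, 5.76 ± 0.555 and 5.60 ± 0.407 FPKM, and Gbp2 at 0.885 ± 0.149 FPKM. The chemokines had few reads, with 2.27 ± 1.24 FPKM of Ccl5 and 0.236 ± 0.210 FPKM of Cxcl10 in IgG without fibronectin.

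**Figure D1:**
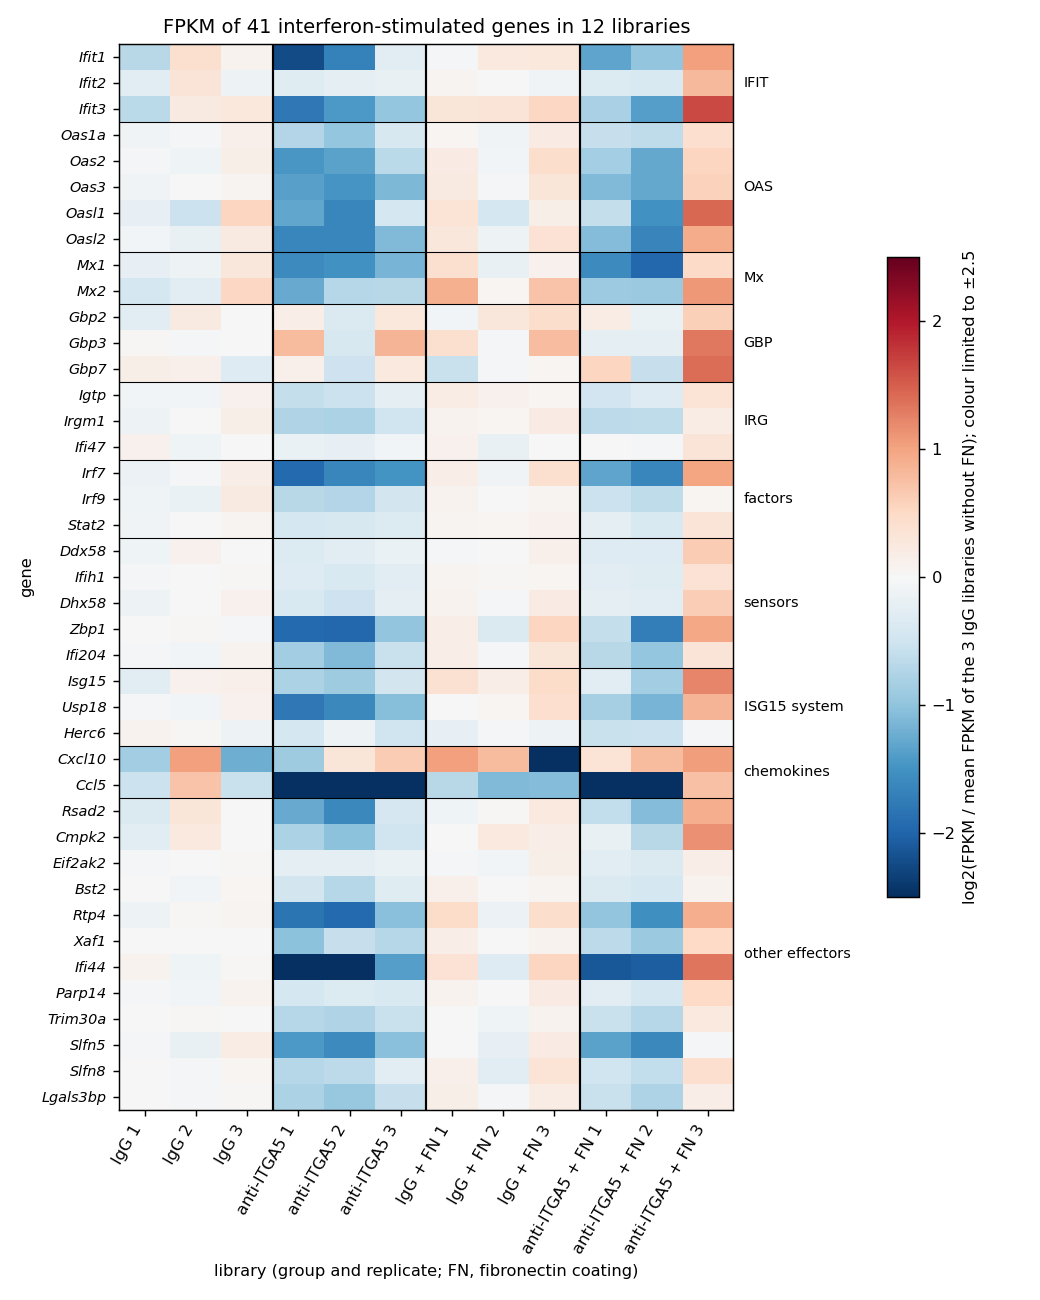
Each cell is the log2 ratio of a gene's FPKM in 1 library to its mean in the 3 IgG libraries without fibronectin (FN); columns are the 12 libraries and rows the 41 genes by family. Blue fills most of the 3 anti-ITGA5 columns without FN and of replicates 1 and 2 with FN, whereas replicate 3 of anti-ITGA5 with FN is red or near white.

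The first question was whether neutralizing ITGA5 changes these genes on uncoated plates. Of the 41 members, 31 fell upon ITGA5 neutralization without fibronectin and 0 rose, with a median log2 fold change of -0.69. Across all 12924 genes tested the median was 0.01, and 9.79% were called lower and 11.0% higher (edgeR quasi-likelihood test, Benjamini-Hochberg adjusted p of at most 0.05). The FPKM of 33 members did not overlap between the groups, all of them lower in anti-ITGA5, against 19.4% of all genes tested. The members not called were Ifit1, Ifit2, Oasl1, Mx2, Gbp2, Gbp3, Gbp7, Ifi47, Herc6 and Cxcl10. With the spread estimated over all 12 libraries the count was 19, where 11.6% of 13455 genes were lower, and limma on log2(FPKM + 1) without a filter gave 18, where 2.08% of 25741 genes were.

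The transcription factors of the pathway were among the genes that fell. Irf7 (chr7:141262706-141266481, overlapping Phrf1) was at 7.11, 7.67 and 8.88 FPKM in IgG and at 2.05, 2.54 and 2.80 FPKM in anti-ITGA5. All anti-ITGA5 libraries lay far below all IgG libraries, at 31.2% of the IgG mean, and the log2 fold change was -1.67 ± 0.12 (SE; edgeR adjusted p = 1.5e-05). Irf9 (chr14:55603571-55610030, overlapping Rnf31), the DNA-binding partner of the STATs, stood at 9.29, 8.93 and 11.6 FPKM against 6.18, 5.97 and 7.23 FPKM. The groups did not overlap, with a log2 fold change of -0.61 ± 0.11 (edgeR adjusted p = 0.00239). Stat2 (chr10:128270559-128292849) fell less, from 12.8 ± 0.660 to 9.74 ± 0.338 FPKM (log2 fold change -0.39 ± 0.06, edgeR adjusted p = 0.00131, n = 3).

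Of the IFIT, OAS and Mx genes, 6 of 10 were called lower, namely 4 of 5 OAS genes, 1 of 3 IFIT genes and 1 of 2 Mx genes. All 10 fold changes were negative, at a median of -1.09 on the log2 scale. Oasl2 (chr5:114896936-114912234), an OAS-like protein with ubiquitin-like domains, was at 6.67, 6.13 and 8.22 FPKM in IgG and at 2.26, 2.26 and 3.26 FPKM in anti-ITGA5. The ranges were well apart, and the log2 fold change was -1.42 ± 0.15 (edgeR adjusted p = 9.98e-05). Oas3 gave the smallest adjusted p of the members, falling from 15.6 ± 0.915 to 6.30 ± 0.794 FPKM (log2 fold change -1.30 ± 0.08, edgeR adjusted p = 7.15e-06, n = 3). Oas1a, the most abundant OAS gene, fell by 0.66 ± 0.12 on the same scale (edgeR adjusted p = 0.00275). Mx1 (chr16:97447035-97462907) was at 2.55, 2.69 and 3.57 FPKM in IgG and at 0.979, 1.04 and 1.31 FPKM in anti-ITGA5, again without overlap (log2 fold change -1.39 ± 0.17, edgeR adjusted p = 0.000283). The C57BL/6 background carries an Mx1 allele that does not make a working protein, so this is a readout of transcript only. Ifit3 was called at -1.34 ± 0.31 (edgeR adjusted p = 0.0124), but not without IgG replicate 2 or 3 or anti-ITGA5 replicate 1 (0.0505 to 0.0734). The values of Ifit1 (-1.10 ± 0.45, edgeR adjusted p = 0.113), Oasl1 (-0.99 ± 0.37, 0.0824) and Mx2 (-0.86 ± 0.35, 0.113) were also negative but had wider errors on fewer reads, and Ifit2, at 3.35 to 5.03 FPKM in IgG and 3.25 to 3.52 FPKM in anti-ITGA5, had the smallest difference (-0.23 ± 0.14, 0.280). Without anti-ITGA5 replicate 3, Ifit1 (-1.94) and Oasl1 (-1.43) were called lower.

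Of the 6 GBPs and IRGs, 2 were called, with a median log2 fold change of -0.06. None of the 3 GBPs was called by edgeR, which also gave none of them an unadjusted p under 0.05, and DESeq2 called none. Gbp2 (chr3:142620602-142638008) was at 0.736, 1.03 and 0.884 FPKM in IgG and at 0.997, 0.693 and 1.07 FPKM in anti-ITGA5. These ranges overlap, with a log2 fold change of 0.07 ± 0.27 (edgeR adjusted p = 0.889). Gbp3 was at 0.450 to 0.479 FPKM in IgG and at 0.803, 0.356 and 0.836 FPKM in anti-ITGA5, and its log2 fold change of 0.53 ± 0.33 passed the threshold, as higher, only without replicate 2 of anti-ITGA5 (0.81). Gbp7 did not differ beyond its error (0.01 ± 0.32). At 13 to 63 counts per library, the GBPs had wider errors than most members.

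Of the IRGs, Irgm1 (chr11:48861968-48871683), which guards host membranes and steers autophagy, fell from 5.24, 5.68 and 6.34 FPKM to 3.40, 3.31 and 4.09 FPKM (log2 fold change -0.67 ± 0.10, edgeR adjusted p = 0.000966). Igtp, at -0.43 ± 0.12, was called as well (edgeR adjusted p = 0.0329), but it overlaps Irgm2 and its call was lost with DESeq2 (adjusted p = 0.0998) and on leaving out any IgG library or anti-ITGA5 replicate 1 (edgeR adjusted p of 0.0674 to 0.122). Ifi47 (chr11:49076587-49096974) was at 6.34, 5.49 and 5.84 FPKM in IgG and at 5.23, 5.08 and 5.64 FPKM in anti-ITGA5. Its ranges overlap and it was not called (-0.14 ± 0.09, edgeR adjusted p = 0.326). The difference in response between the antiviral families and the GTPases was not tested.

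All 5 nucleic acid sensors were called lower by edgeR, and 4 of them by DESeq2, where Ddx58 was not (adjusted p = 0.0843). Zbp1 (chr2:173206612-173218923), a sensor of Z-form nucleic acid that triggers necroptosis, was at 1.62, 1.65 and 1.57 FPKM in IgG and at 0.420, 0.411 and 0.815 FPKM in anti-ITGA5, with no overlap (log2 fold change -1.52 ± 0.26, edgeR adjusted p = 0.00234). Ifi204, a DNA sensor of the AIM2-like family, went from 25.2 ± 1.49 to 14.2 ± 2.69 FPKM (n = 3), or to 56.2% of the IgG mean. The RNA helicases Ddx58 (RIG-I), Ifih1 (MDA5) and Dhx58 (LGP2) changed least, to 83.6%, 80.1% and 77.1%.

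In the ISG15 system, Usp18 (chr6:121245906-121270917), the protease that removes ISG15 and restrains the interferon receptor, was at 3.34, 3.26 and 3.70 FPKM in IgG and at 1.00, 1.12 and 1.64 FPKM in anti-ITGA5. Every anti-ITGA5 value was lower than every IgG value (log2 fold change -1.43 ± 0.18, edgeR adjusted p = 0.000311). Isg15 (chr4:156199424-156200818) fell from 6.35, 8.23 and 8.38 FPKM to 4.45, 4.13 and 5.54 FPKM (-0.69 ± 0.18, edgeR adjusted p = 0.0242). Its call did not hold with DESeq2 (adjusted p = 0.0549) or without IgG replicate 2 or 3 or anti-ITGA5 replicate 1 (edgeR adjusted p of 0.0840 to 0.105). Herc6, the mouse ligase for ISG15, fell short of the threshold, with no overlap between groups (adjusted p = 0.0528).

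All 12 other antiviral effectors fell. Rtp4 (chr16:23520291-23614222, overlapping Masp1) showed 11.3, 12.7 and 13.0 FPKM in IgG and 3.50, 3.20 and 5.99 FPKM in anti-ITGA5, a separation of the groups (log2 fold change -1.51 ± 0.18, edgeR adjusted p = 0.000269). Slfn5 was at 39.5% of the IgG mean, Rsad2 (viperin) at 50.0%, whose call was lost without IgG replicate 2 or 3 or anti-ITGA5 replicate 1 (edgeR adjusted p of 0.0792 to 0.108), and Lgals3bp at 59.0%. Bst2 decreased from 299.9, 286 and 308 FPKM to 216, 182 and 243 FPKM, or to 71.7%, and Eif2ak2 (PKR) to 86.3%. Ifi44 and Ccl5 had the largest fold changes of the members in the edgeR fit, -2.08 ± 0.40 and -2.80 ± 0.48, on 4 to 84 and 3 to 63 counts per library, and were singled out after their values were seen. On log2(FPKM + 1) without a filter, where limma gave -0.31 for Ifi44, -1.26 for Ccl5 and -1.36 for Irf7, they were not the largest. Ccl5, a T-cell chemokine, was at 1.57, 3.71 and 1.54 FPKM in IgG and at 0.356, 0.227 and 0.355 FPKM in anti-ITGA5 (edgeR adjusted p = 0.00224).

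**Figure D2:**
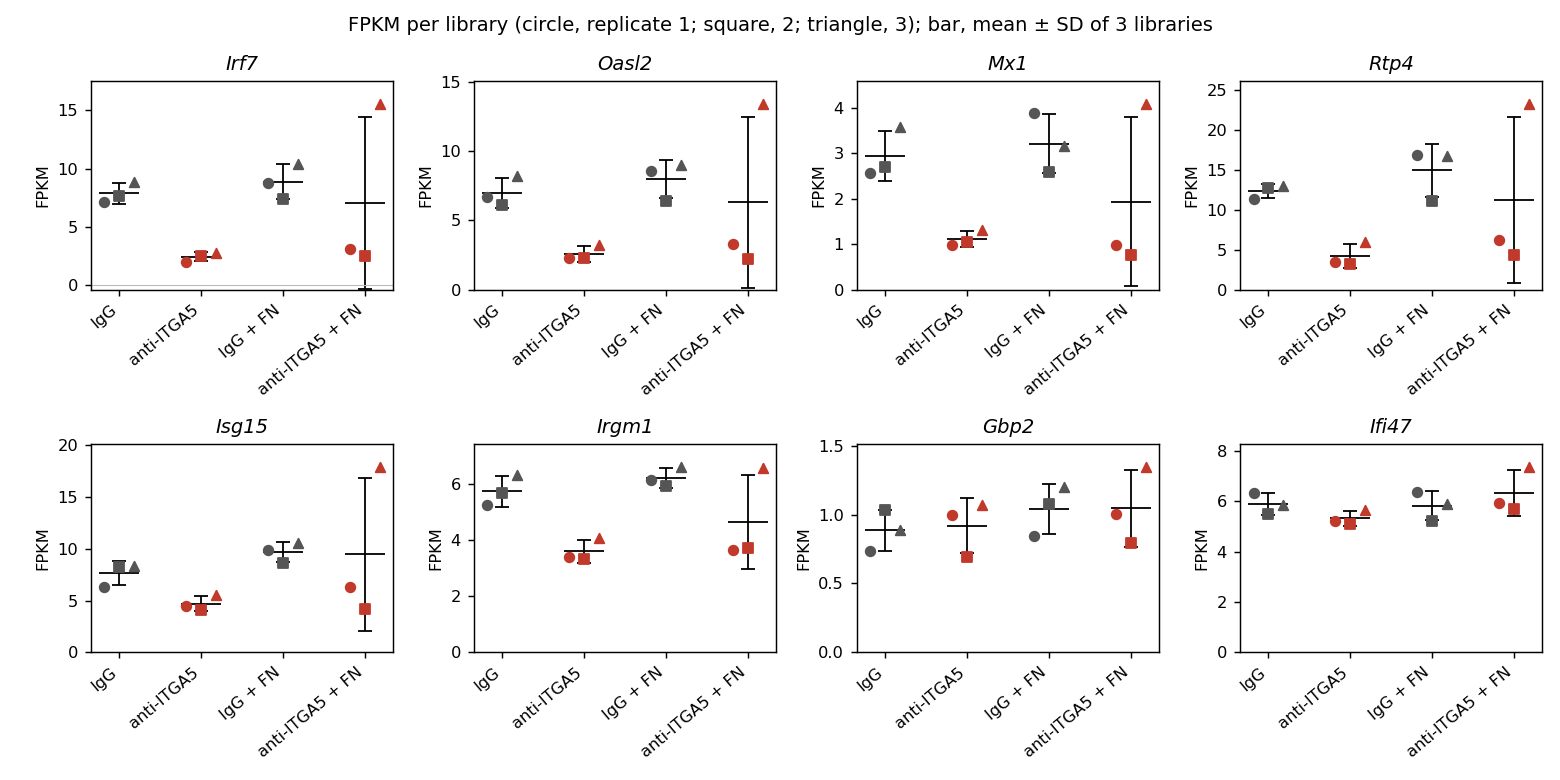
FPKM of 8 genes in each library (points; circle, replicate 1; square, 2; triangle, 3) with the mean and SD of the 3 libraries of each group. Irf7, Oasl2, Mx1, Rtp4, Isg15 and Irgm1 are low in every anti-ITGA5 library but replicate 3 with fibronectin (FN), whereas Gbp2 and Ifi47 overlap between groups.

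The same comparison on fibronectin gave another count. Only 1 of the 41 members, Irf9, was called lower upon ITGA5 neutralization with fibronectin and 0 were called higher, with a median log2 fold change of -0.24, although 13.2% of all 12916 genes tested were lower and 14.4% higher. The FPKM of 0 members separated the groups with anti-ITGA5 lower, against 20.6% of all genes tested. DESeq2 called 0 of the 39 members to which it gave an adjusted p, and 5 members had an unadjusted edgeR p under 0.05, all lower, where 18.9% of all genes tested were lower at that threshold. With a minimum of 1 count in place of the filter, edgeR called 17 lower and 1, Gbp7, higher, where 7.03% of 25336 genes were lower and 7.48% higher. With the replicate number fitted as a block, edgeR called 17 lower and 0 higher, where 2217 of 12916 genes were lower and 2321 higher. The labels do not say that these numbers pair the libraries. Irf9 was at 10.5, 9.82 and 10.4 FPKM in IgG and at 6.84, 6.42 and 10.3 FPKM in anti-ITGA5 (log2 fold change -0.39 ± 0.13, edgeR adjusted p = 0.0424). Replicates 1 and 2 of the anti-ITGA5 libraries lay below IgG and replicate 3 within its range, and the call was lost on leaving out any library other than that one (edgeR adjusted p of 0.0647 to 0.178).

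Replicate 3 of anti-ITGA5 with fibronectin carried the highest value of its group in 41 of 41 members, against 33.5% of all genes tested. Irf7 was at 8.79, 7.43 and 10.4 FPKM in IgG with fibronectin and at 3.15, 2.53 and 15.6 FPKM in anti-ITGA5. Its first 2 values resemble those of anti-ITGA5 without fibronectin and the last exceeds every IgG library (log2 fold change of the group -0.35 ± 0.48, edgeR adjusted p = 0.626). Oasl2 was at 8.58, 6.41 and 9.03 FPKM in IgG and at 3.31, 2.22 and 13.4 FPKM in anti-ITGA5. Mx1 was at 3.88, 2.58 and 3.16 FPKM in IgG and at 0.980, 0.752 and 4.07 FPKM in anti-ITGA5. The same order recurred in Rtp4, at 6.26, 4.29 and 23.2 FPKM in anti-ITGA5 against 11.1 to 16.9 FPKM in IgG, and in Isg15, at 6.27, 4.19 and 17.9 FPKM against 8.63 to 10.6 FPKM. Ifit3 had 7.80 FPKM in replicate 3 and 1.42 and 0.954 FPKM in the others, a ratio of 6.58. Ccl5 had the largest ratio, 12.6, on few reads.

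Replicate 3 lay above the range of the IgG libraries with fibronectin in 36 members, against 35.0% of all genes tested, within it in 5 (Irgm1, Irf9, Bst2, Slfn5 and Lgals3bp) and below it in 0. Replicates 1 and 2 both lay below that range in 37 members, against 27.1% of all genes tested. Relative to the IgG mean with fibronectin, the median member was at 63.9% in replicate 1, 56.5% in replicate 2 and 133% in replicate 3. For the IFIT, OAS and Mx genes these medians were 42.7%, 35.4% and 154%, and for the GBPs and IRGs 81.3%, 74.6% and 128%. Both kinds of gene were therefore high in replicate 3, including the GBPs that had not been called without fibronectin. Gbp2 was at 1.00, 0.790 and 1.35 FPKM, Gbp3 at 0.395, 0.395 and 1.17 FPKM and Gbp7 at 0.349, 0.163 and 0.636 FPKM in anti-ITGA5 with fibronectin. Ifi47 differed least, at 5.94, 5.69 and 7.36 FPKM.

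Compared with the mean of replicates 1 and 2, on the log2(FPKM + 0.1) scale, replicate 3 was higher by a median of 1.14 over the members and by -0.01 over all 12916 genes tested. The members ranged from 0.34 to 3.28, and 39 of 41 exceeded the 95th percentile of all genes, which was 0.43. Of the 50 genes with the largest ratio, 19 were members and 12 came from the other interferon lists described below. The median coefficient of variation of the members in this group was 56.3%, against 6.83% over all genes tested. For the same antibody on uncoated plates it was 16.8%, against 8.32% over the same genes. In the IgG groups it was 7.99% on uncoated and 11.4% on coated plates, against 6.2% and 5.9%.

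**Figure D3:**
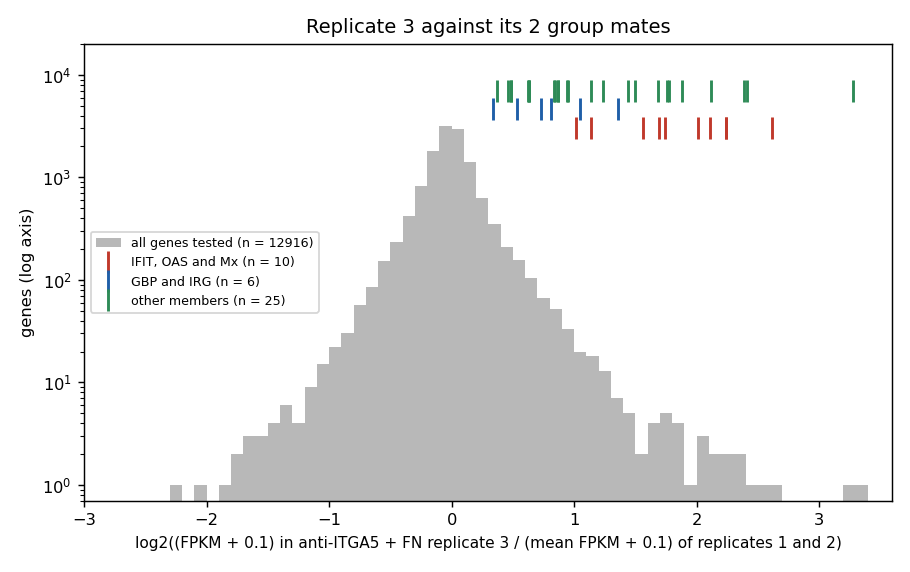
Histogram (log count axis) of the log2 ratio of FPKM + 0.1 in replicate 3 of anti-ITGA5 with fibronectin to the mean of replicates 1 and 2, over 12916 genes, with ticks for 41 members by family. All ticks lie right of 0, between 0.34 and 3.28, and those of the IFIT, OAS and Mx genes lie at 1.02 or more.

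Most genes outside the interferon lists that were called without fibronectin lay beyond the IgG range in replicate 3. Their shares were lower than in replicates 1 and 2, and whether the size of their change differed was not tested. Vegfa, an angiogenic growth factor, was at 39.4 to 43.4 FPKM in IgG with fibronectin and at 25.1, 26.7 and 27.7 FPKM in anti-ITGA5. Mmp9, a matrix protease, was at 8.41 to 9.34 FPKM and at 3.68, 3.31 and 3.76 FPKM. Replicate 3 was thus below every IgG library in both of these, which were singled out after their values were seen. Of the 1193 genes outside the interferon lists that were lower without fibronectin, 93.9%, 94.6% and 89.8% lay below all IgG libraries with fibronectin in replicates 1, 2 and 3. Of the 1417 that were higher, 95.6%, 96.1% and 89.3% lay above them. Of the 31 members lower without fibronectin, 31, 31 and 0 lay below. The counts use the calls of the other plates and the libraries with fibronectin, which share no sample.

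**Figure D4:**
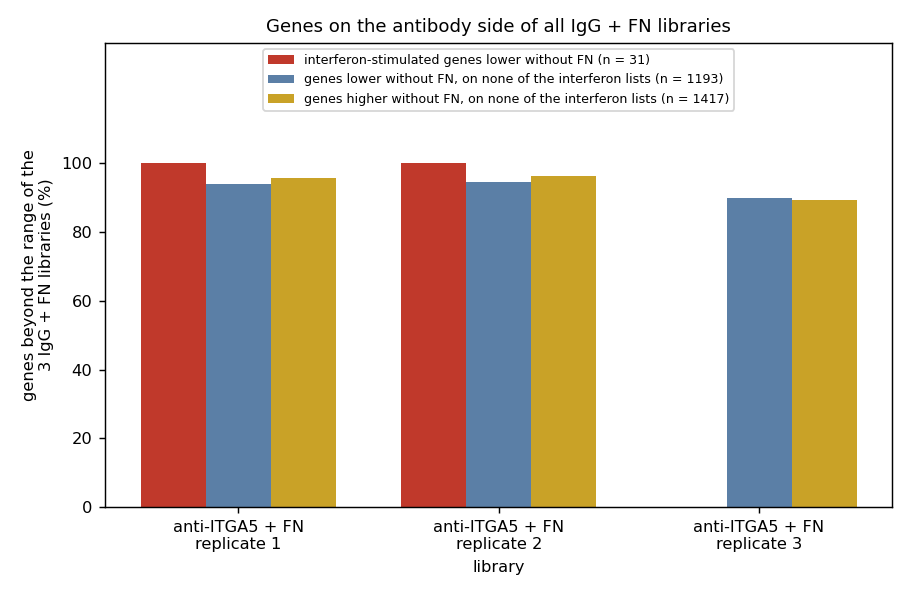
Share of genes (%) that lie beyond the range of the 3 IgG libraries with fibronectin (FN), on the side of the antibody effect seen without FN, in each anti-ITGA5 library with FN. The interferon-stimulated genes drop from 100% in replicates 1 and 2 to 0% in replicate 3, whereas the other genes stay between 89.3% and 96.1%.

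Without replicate 3, 36 of the 41 members were called lower with fibronectin and 0 higher, at a median log2 fold change of -0.76, where 14.4% of the 13219 genes tested were lower and 15.6% higher. All 10 IFIT, OAS and Mx genes fell (median -1.34). Irf7 then changed by -1.64 ± 0.13 (edgeR adjusted p = 7.66e-08), Mx1 by -1.88 ± 0.19 (8.86e-07), Oasl2 by -1.53 ± 0.15 (4.93e-07), Rtp4 by -1.49 ± 0.17 (3.49e-06), Usp18 by -1.15 ± 0.16 (4.06e-05), Zbp1 by -1.19 ± 0.28 (0.00394) and Isg15 by -0.88 ± 0.18 (0.00127). Of the GTPases, Irgm1 and Igtp fell and Gbp2 (-0.21 ± 0.25), Gbp3 (-0.64 ± 0.31), Gbp7 (0.23 ± 0.36) and Ifi47 (0.0040 ± 0.11) did not pass the test, nor did Cxcl10. Leaving out replicate 1 of the group in its place gave 0 called members and a median of -0.02. In that fit 1113 of 13208 genes were lower and 1323 higher. Leaving out replicate 2 gave 1, Gbp7, higher, and a median of 0.04, where 1302 of 13216 genes were lower and 1483 higher. Removing replicate 3 removes the values that opposed the fall, so the 36 calls describe the remaining 5 libraries and do not show which replicate stands for the condition.

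**Figure D5:**
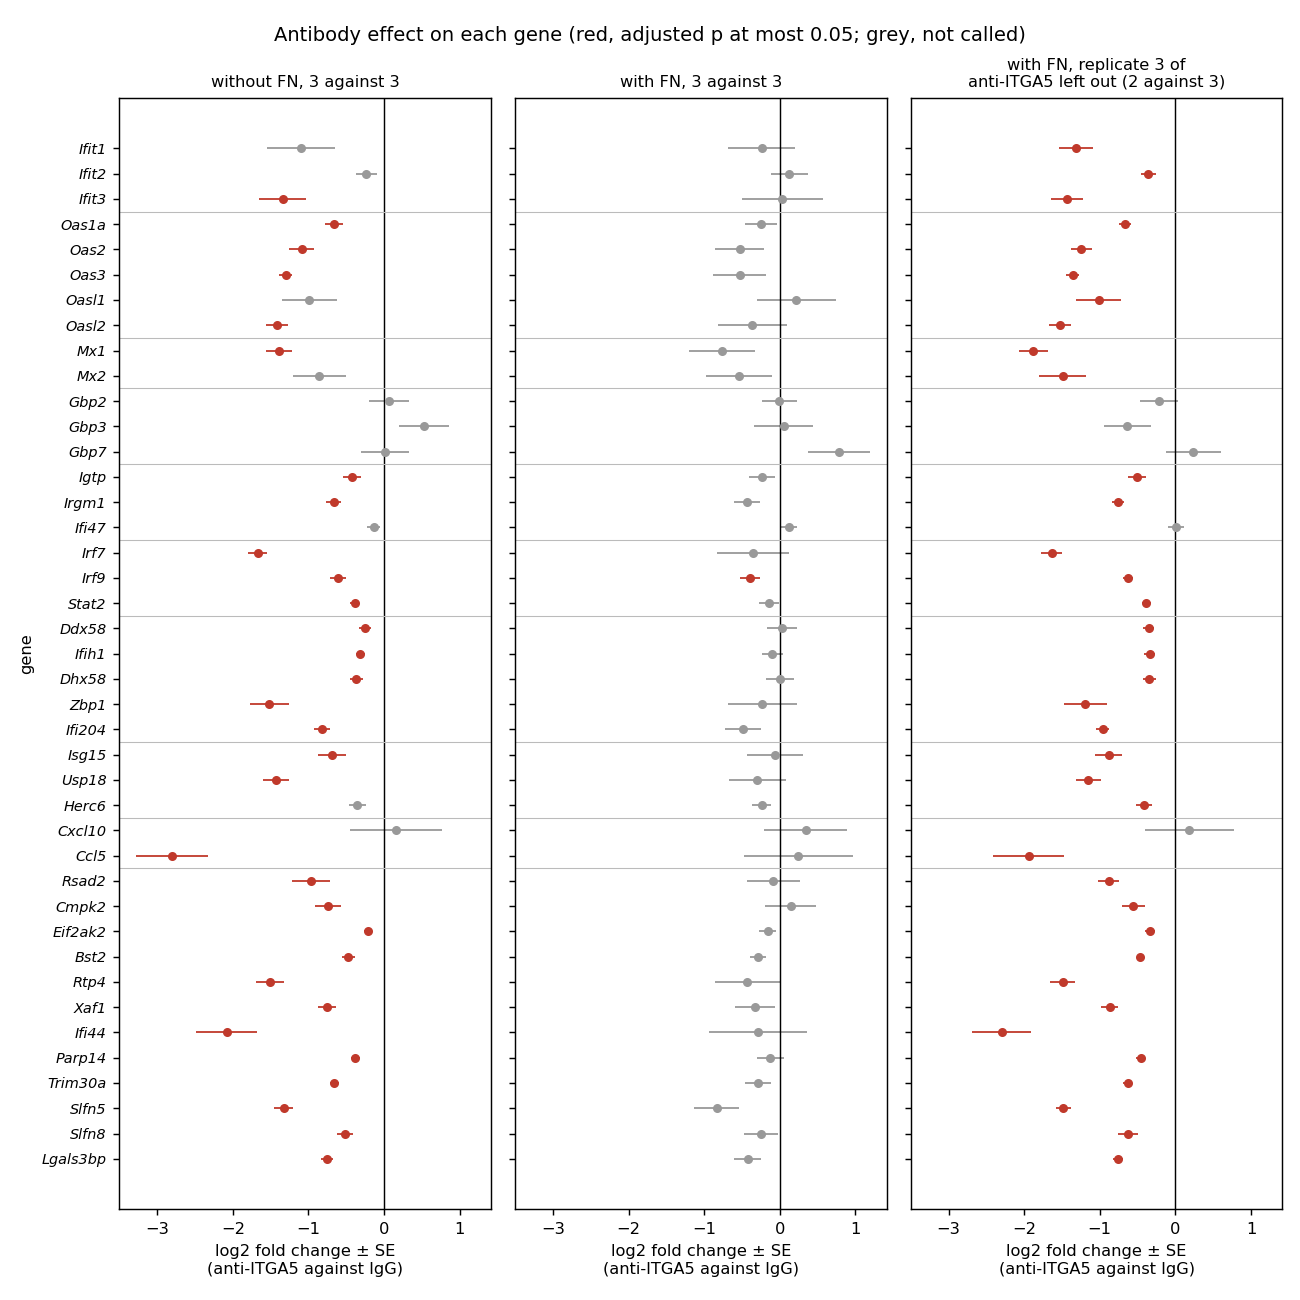
Log2 fold change of anti-ITGA5 against IgG (± SE, edgeR) for each member without fibronectin (FN), with FN, and with FN after replicate 3 of anti-ITGA5 is left out. Red points (adjusted p of at most 0.05) number 31, 1 and 36, and the 3 GBPs and Ifi47 are grey in each panel.

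The second question was whether fibronectin itself changes these genes. In IgG, 0 of 41 members were called in either direction, where 0.325% of 12925 genes were higher and 0.124% lower. The median log2 fold change was 0.10, and 3 members were higher and 1 lower at an unadjusted p under 0.05, where 5.3% of all genes were higher and 4.5% lower. DESeq2 also called 0, but it gave an adjusted p to only 9 of the 41 members, and the other 32, Ccl5 and Mx2 included, could not be called by it. The edgeR values ran from -0.96 ± 0.34 for Ccl5 to 0.57 ± 0.27 for Mx2. Irf7 differed by 0.16 ± 0.11 and Stat2 by 0.07 ± 0.05. Oas3, at 14.6, 15.8 and 16.4 FPKM without and 18.2, 15.3 and 19.3 FPKM with fibronectin, overlapped between plates (0.17 ± 0.07, edgeR adjusted p = 0.433). Without IgG replicate 2 with fibronectin, Oas3 and Rtp4 were called higher, where 0.584% of 13190 genes were. With a minimum of 1 count in place of the filter, Oas3 was called higher and Ccl5 lower, where 0.683% of 25616 genes were higher and 0.258% lower.

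In anti-ITGA5, 0 of the 39 members tested were called, where 0.0% of 12863 genes were higher and 0.0% lower (DESeq2 called 0 of the members as well), with 7 members higher at an unadjusted p under 0.05, where 1.54% of all genes were. The low-count filter removed Ccl5 and Ifi44. The median log2 fold change was 0.48 with all libraries and 0.02 without replicate 3 of anti-ITGA5 with fibronectin. When all genes with at least 1 count were kept, 29 members were called higher and 0 lower, where 0.444% of 25430 genes were higher and 0.842% lower. Without replicate 3, the mean FPKM of Irf7 on fibronectin was 2.84, beside 2.46 ± 0.380 without it, and that of Mx1 0.866, beside 1.11 ± 0.179.

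The interaction, which tests whether the antibody effect differs between plates, was called in 0 of 41 members over 12 libraries, where 0.0% of 13455 genes were higher and 0.0223% lower. DESeq2 called 0 members. At an unadjusted p under 0.05, where 1.26% of all genes were higher, there was 1 member, Ccl5 (3.07 ± 1.10), followed by Usp18 (1.13 ± 0.54) and Irf7 (1.32 ± 0.67), each with an edgeR adjusted p of 0.9997. Without replicate 3 of anti-ITGA5 with fibronectin these were 0.87 ± 0.75, 0.28 ± 0.26 and 0.036 ± 0.21, and no member was higher at an unadjusted p under 0.05 while 1 was lower, where 1.62% of all genes were higher and 1.7% lower. The median was 0.37 with all libraries and -0.06 without replicate 3 of anti-ITGA5 with fibronectin. With a minimum of 1 count in place of the filter, 15 members were called higher and 0 lower, where 0.12% of 27574 genes were higher and 0.116% lower. With the filter, the antibody effects on the 2 plates are not shown to differ in any member.

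The upstream genes of the pathway were examined from lists of ligands and of receptors with their signalling proteins. Of 12 interferon ligand genes, 10 had 0 counts in all 12 libraries, and the highest count was 4, of Ifnk. Ifnb1 was among the others, with at most 2 counts. The receptor and signalling list had 6 of 13 genes lower and 1 higher without fibronectin, and 4 lower and 2 higher with it, or 6 lower and 2 higher without replicate 3. Over all genes tested, 9.79% were lower and 11.0% higher without fibronectin, 13.2% and 14.4% with it, and 14.4% and 15.6% without replicate 3. Ifnar1 was at 38.9, 38.8 and 39.4 FPKM in IgG and 30.0, 30.1 and 30.8 FPKM in anti-ITGA5 without fibronectin, a clear separation. With fibronectin it was at 38.6, 38.0 and 40.1 FPKM and at 29.9, 29.3 and 32.1 FPKM, so that replicate 3 was the highest of its group and still below every IgG library (log2 fold change -0.35, edgeR adjusted p = 0.000122). Ifnar2 (19.7 to 24.6 FPKM in all libraries) and Ifngr2 (20.9 to 26.0 FPKM) were not called on either plate, and Ifngr1 fell by 0.23 and 0.26 on the log2 scale. Irf1, an interferon-induced transcription factor, was at 5.73, 6.07 and 7.50 FPKM in anti-ITGA5 with fibronectin, the last again being replicate 3.

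Among 60 further type I interferon-stimulated genes, 53 could be tested without fibronectin, of which 31 fell and 1 rose (median log2 fold change -0.28), where 9.79% of all genes were lower. With fibronectin, 9 of 56 fell and 2 rose, a share of lower genes near the 13.2% of all genes. Without replicate 3, 33 of 57 fell and 1 rose, where 14.4% of all genes were lower. The 3 largest changes without fibronectin were in Ly6e (-1.27), Ddx60 (-1.18) and Ifi209 (-1.20), and with fibronectin in Dhx9 (-0.99), Cd69 (0.98, on 9 to 24 counts) and Apobec3 (0.66). Dhx9, an RNA helicase that this list shares with many cellular processes, was at 27.7, 26.2 and 27.1 FPKM in anti-ITGA5 with fibronectin against 52.0 to 54.8 FPKM in IgG, and so did not follow the other genes in replicate 3. Of 26 further interferon-gamma-induced genes, 10 could be tested without fibronectin, of which 2 (Cd274 and Irgm2) fell and 0 rose. With fibronectin, 1 of 11 fell, and 4 of 12 fell without replicate 3.

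Replicate 3 was also the highest library for 26 of 41 members in IgG without fibronectin, for 37 in anti-ITGA5 without it and for 26 in IgG with it, where 34.1%, 33.2% and 32.1% of all genes tested were highest in replicate 3. In anti-ITGA5 without fibronectin, Rtp4 illustrates this at 3.50, 3.20 and 5.99 FPKM, and the last remained under the lowest IgG library. Of the plasmacytoid dendritic cell markers, Siglech and Ly6d had at most 1 count and Klk1 at most 2 in any library, all 7 T and NK cell markers had at most 1 count, and the summed level of the 6 plasmacytoid dendritic cell markers was 11.8 to 16.1 FPKM in anti-ITGA5 with fibronectin and 15.9 to 17.5 FPKM in IgG with it, carried by Tcf4 and Cox6a2. Conventional dendritic cell markers reached at most 16 counts and the B cell marker Cd79a 2 to 13. The neutrophil marker S100a8 had 17 to 44 counts in every library, S100a9 had 0 to 13, and Ly6g and Retnlg had 0. The fibroblast marker Col1a1 had 10 to 23 counts. In anti-ITGA5 with fibronectin the summed neutrophil markers were 1.67 to 2.78 FPKM and the fibroblast markers 0.234 to 0.317 FPKM, against 2.73 to 4.02 and 0.292 to 0.378 FPKM in IgG with fibronectin. Their part in the results was not tested.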

How the data were processed

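RNA-seq of 12 libraries (3 in each of 4 groups) was analysed. According to the labels, poly(A) RNA was used for paired-end libraries. The submitters' processing notes name TopHat2 2.0.9, HTSeq 0.6.1, Cufflinks 2.1.1 and the builds mm10 and GRCm38.p6. The authors deposited counts of reads per gene without normalization, and FPKM in which the authors divided counts by gene length and a library total. The strand setting and annotation release are not given in the sources used here. The named kit does not mark strand, and 17 of the 41 members overlap another gene, so shared reads may have been lost or misassigned. Members with near-identical copies (Ifit3 with Ifit3b, Oas1a with Oas1g, the GBPs) are uncertain for the same reason.

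Counts were tested with edgeR 4.0.16 (R 4.3.3), with TMM scaling, filterByExpr (minimum count 10, total 15), the quasi-likelihood test and Benjamini-Hochberg adjustment over all genes tested, at 0.05. Each comparison used its own 6 libraries and the interaction all 12. The standard error is the log2 fold change divided by the square root of F. Scripts were tested on simulated data. The alternatives were DESeq2 1.42.0, its size factors, total counts, a minimum of 1 count, a replicate block, limma 3.58.1 on log2(FPKM + 1) or log2(FPKM + 0.1) with at least 0.5 FPKM in 3 libraries or no filter, all 12 libraries in 1 fit, and each library left out. Leaving out 2 libraries at once was added after seeing the data. Promoter windows are from RefSeq (GRCm38.p6), where 31 members matched.

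The members and lists were chosen with earlier results of these data known. Genes named were the 6 called members with the largest change per antibody comparison (4 per fibronectin comparison) among those that reached 10 counts in each library of that comparison. Added were the 3 with the smallest interaction p, the most abundant of each family, Irf7, Irf9 and Stat2, of the other genes Itga5, Irf1, Ifnb1 and the receptors, and the 3 further type I genes with the largest change per antibody comparison. Others were named after their values were seen, and some genes are not reported here. Library totals were 12954342 to 22075432 counts, and errors of low-count members are correspondingly wide.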

Additional observations from a re-analysis of the deposited data

How the results depend on the processing

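Without fibronectin, the 31 members called lower became 18 with unfiltered limma on log2(FPKM + 1) and 19 with all 12 libraries in 1 fit. They became 34 with a minimum of 1 count, where 1276 of 25741 genes were lower. On leaving out 1 library they became 23 to 33, where 627 of 13338 to 1842 of 13161 genes were lower. Members called higher went from 0 to at most 1 (0 to 1, without anti-ITGA5 replicate 2, where 1992 of 13161 genes were higher). With fibronectin, the 1 member called lower became 0 with DESeq2, total counts and the 3 limma fits, and another gene (Slfn5) with all 12 libraries. The count became 17 with a minimum of 1 count and 0 to 36 on leaving out 1 library. Members called higher were 1 with a minimum of 1 count and 0 to 1 on leaving out 1 library. On leaving out 1 library, 1113 of 13208 to 1907 of 13219 genes were lower. In the same 2 fits, 1323 and 2065 genes were higher. On fibronectin in IgG, a minimum of 1 count gave 1 higher and 1 lower. Leaving out 1 library gave 0 to 2 higher, where 6 of 13213 to 77 of 13190 genes were higher. On fibronectin in anti-ITGA5 a minimum of 1 count gave 29 higher, where 113 of 25430 genes were called higher. In the interaction it gave 15 higher, where 33 of 27574 genes were. The cause was not tested. With anti-ITGA5 replicate 2 without and replicate 3 with fibronectin both left out, 0 members were called by edgeR in either comparison (2 lower and 1 lower at an unadjusted p under 0.05, where 418 of 12932 and 383 of 13645 genes were). The core was found in 17 in place of 20 members upstream of the start.

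Directions reversed in single genes whose fold changes were near 0 or rested on replicate 3. On leaving out 1 library, the antibody effect with fibronectin ranged from -1.64 to 0.055 in Irf7, -1.19 to 0.20 in Zbp1, -1.15 to 0.040 in Usp18, -1.53 to 0.046 in Oasl2, -1.94 to 0.77 in Ccl5, -0.36 to 0.33 in Ifit2, -0.21 to 0.16 in Gbp2, -0.88 to 0.30 in Isg15, -2.30 to 0.20 in Ifi44 and -0.64 to 0.32 in Gbp3. Without fibronectin it ranged from -0.052 to 0.22 in Gbp2 and from -0.14 to 0.19 in Gbp7. Ccl5 with fibronectin was -0.12 in both limma fits on log2(FPKM + 1) and -0.59 on log2(FPKM + 0.1). Gbp2 with fibronectin was 0.0037 with DESeq2 and 0.037 with total counts, Gbp3 -0.061 with limma on log2(FPKM + 0.1), and Gbp7 without fibronectin -0.0024 with limma without a filter.

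Replicate numbers were not taken to pair the libraries, since the correlation of deviations of same-numbered libraries ranged from 0.006 to 0.24 and was not above 0.1 in every pair, although the same-numbered library was the best match in 11 of 12 cases, a hint from the data and not from the design. With the replicate block, 34 members were lower without fibronectin, where 1421 of 12924 genes were. With fibronectin 17 members were lower, where 2217 of 12916 genes were. On fibronectin in IgG 1 member (Oas3) was higher, where 283 of 12925 genes were. Under the same block, Ccl5 with fibronectin was -0.067 and Gbp3 -0.0060.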
